A study of Mus musculus with 2 samples.

Results

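The macrophages of the newborn mouse kidney that carry C1q messenger RNA were taken as the barcodes with at least 4 UMIs (unique molecular identifiers, each 1 counted RNA molecule) of C1qa and C1qb in sum and at least 1 UMI of Tyrobp. A member also had no UMI of Epcam, a gene of epithelium, at most 1 of Pecam1, a gene of endothelium, and at most 2 of Col3a1, a collagen gene of stroma. Every barcode considered had at least 3000 UMIs, at least 500 detected genes and at most 20% of its UMIs from mitochondrial genes. The rule kept 95 of 5529 barcodes in replicate 1 and 33 of 4206 in replicate 2, 128 of 9735 in all. Members were 1.72% of the barcodes in replicate 1 (exact binomial 95% interval 1.39 to 2.10%) and 0.785% in replicate 2 (0.541 to 1.10%), intervals that cover counting error only. The rule used measured counts, so the share of members and the levels of its 6 genes are a description with no test.

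The study profiled kidneys at P0, the day of birth, by droplet sequencing of the 3' ends of RNA from single cells. Both libraries carry the genotype Rbpj c/+ ; Foxd1cre/+, that is, a conditional allele of Rbpj on 1 chromosome and a Cre recombinase driven by Foxd1, a gene of stromal progenitors. All cells, the members included, therefore come from 1 group with n = 2 libraries, named replicate 1 and replicate 2 in order of deposit. The labels do not say whether a library is 1 animal or a pool, and libraries of another genotype were not analysed here. No effect of the genotype can be tested, and no test between groups was possible. The label gives the animals' genotype, while whether Cre acted in any given cell was not measured.

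Macrophages are the resident phagocytes of a tissue, and those of the fetal and newborn kidney derive from yolk sac and fetal liver precursors. They depend on the receptor Csf1r, engulf dying cells and debris, and break them down in lysosomes. C1q is the recognition protein that starts the classical complement pathway, and it also tags dying cells and cell fragments for uptake. It is built from A, B and C chains, encoded by C1qa, C1qb and C1qc. The 3 genes lie side by side on the minus strand of chromosome 4 of GRCm38, C1qb at chr4:136880129-136886187, C1qc at chr4:136889804-136893065 and C1qa at chr4:136895917-136898803.

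The promoters of the leading genes are shown because members are defined by the joint presence of C1q RNA, and the genes below carried the largest differences from the other barcodes. Each is the run of 250 bases before the start site in RefSeq (GRCm38.p6), 5' to 3' on the strand of the gene. Capitals mark GAGGAAG or its reverse complement CTTCCTC, the core bound by the transcription factor PU.1, which the gene Spi1 encodes and which directs myeloid development. C1qb encodes the B chain, and its window is chr4:136886201-136886450 on the minus strand. C1qc encodes the C chain, and its window is chr4:136892915-136893164 on the minus strand. Mrc1 encodes the mannose receptor, with the window chr2:14229164-14229413 on the plus strand. Pf4 encodes a chemokine best known from platelets, with the window chr5:90772185-90772434 on the plus strand. F13a1 encodes the A subunit of coagulation factor XIII, with the window chr13:37050245-37050494 on the minus strand.
C1qb: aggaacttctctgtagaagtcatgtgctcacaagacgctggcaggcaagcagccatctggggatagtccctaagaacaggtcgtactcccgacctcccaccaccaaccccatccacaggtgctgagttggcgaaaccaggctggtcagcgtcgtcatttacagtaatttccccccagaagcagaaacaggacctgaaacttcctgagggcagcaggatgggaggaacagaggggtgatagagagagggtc
C1qc: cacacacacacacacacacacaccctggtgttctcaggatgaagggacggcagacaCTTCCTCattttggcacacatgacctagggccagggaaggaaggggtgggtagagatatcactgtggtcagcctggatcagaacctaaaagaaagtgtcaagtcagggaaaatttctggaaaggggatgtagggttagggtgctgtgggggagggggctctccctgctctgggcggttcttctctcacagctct
Mrc1: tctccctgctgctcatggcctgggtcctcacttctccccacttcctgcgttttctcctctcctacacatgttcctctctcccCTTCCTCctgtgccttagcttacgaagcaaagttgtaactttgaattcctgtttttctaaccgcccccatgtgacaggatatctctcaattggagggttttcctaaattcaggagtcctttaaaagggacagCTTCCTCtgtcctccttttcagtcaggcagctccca
Pf4: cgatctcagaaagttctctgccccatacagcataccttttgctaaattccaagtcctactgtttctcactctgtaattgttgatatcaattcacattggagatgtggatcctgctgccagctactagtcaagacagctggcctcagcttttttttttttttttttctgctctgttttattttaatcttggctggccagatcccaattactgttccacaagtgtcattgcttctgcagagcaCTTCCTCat
F13a1: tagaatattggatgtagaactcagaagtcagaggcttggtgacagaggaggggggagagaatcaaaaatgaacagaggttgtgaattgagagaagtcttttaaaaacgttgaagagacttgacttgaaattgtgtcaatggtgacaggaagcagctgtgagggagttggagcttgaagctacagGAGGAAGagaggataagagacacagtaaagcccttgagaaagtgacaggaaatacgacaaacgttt

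The C1qb window held no match on either strand. The C1qc window held 1, starting 194 bases before the start site. Mrc1 held 2 matches, the first 168 bases before the start, Pf4 held 1 at 9 bases and F13a1 held 1 at 66 bases. Of the 25 leading genes outside the rule, 20 had a RefSeq window, and 7 of these (35%) held the motif, with Laptm5, Fcgr3 and Fcrls beside the 4 above. It was in 80 of the 353 windows of genes at least 4-fold higher in members (22.7%), in 945 of 8674 windows of all genes tested (10.9%) and in 2807 of all 27025 windows (10.4%). A motif of a second family of blood cell factors, the RUNX proteins, TGTGGT with the reverse ACCACA, was in 3 of the 20 windows (15%), in 64 of the 353 (18.1%) in 889 of the 8674 (10.2%) and in 3832 of all windows (14.2%). A match is a description of letters, not of a bound site. C1qa, Tyrobp and Csf1r had no entry in the table.

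C1q RNA divided the barcodes with little between the extremes. In replicate 1, 5264 barcodes held no C1qa or C1qb UMI, 137 held 1, 9 held 2 or 3, 5 held 4 to 11 and 114 held 12 or more. In replicate 2 these numbers were 4073, 79, 7, 4 and 43. The members' sums ran from 6 through a median of 68 to 168 in replicate 1, and from 7 through 111 to 271 in replicate 2. Just outside the limit lay the 16 barcodes with 2 or 3 UMIs, and lowering the limit to 2 admitted none of them as members.
The other limits of the rule removed barcodes that carried as much C1q as members. With at least 4 C1q UMIs, 24 barcodes in replicate 1 and 14 in replicate 2 were not kept, with median sums of 66.5 and 100 UMIs. Epcam was present in 11 and 7 of them, Pecam1 was above 1 in 11 and 3, Col3a1 was above 2 in 3 and 4, and Tyrobp was missing in 0 and 1.

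**Figure D1:**
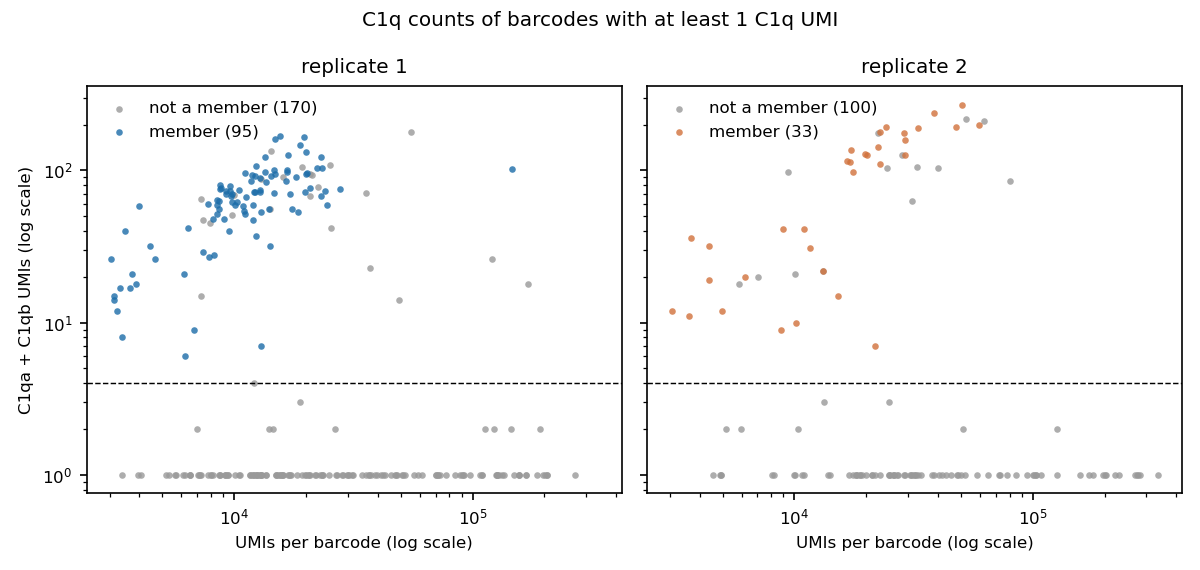
Each point is a barcode with at least 1 UMI of C1qa or C1qb, placed by its total UMIs (horizontal, log scale) and its C1qa + C1qb UMIs (vertical, log scale), members in colour and other barcodes in grey, with the limit of 4 as a dashed line. Members lie at 6 UMIs or more, above the row of 137 and 79 barcodes with a single UMI.

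The libraries summed to 1276054 UMIs over members in replicate 1 and 647834 in replicate 2. Members held a median of 11743 UMIs and 3820 genes in replicate 1, and of 17238 UMIs and 4783 genes in replicate 2, against medians of 15016 and 20008 UMIs over all barcodes that passed the same limits. The deepest member gave 11.5% of the members' UMIs in replicate 1 and 9.20% in replicate 2. That of replicate 1, with 146882 UMIs, also carried 1168 UMIs of podocyte markers. Of the barcode sequences, 6 occurred in both libraries and none of these was a member.

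Members were rich in macrophage genes that the rule did not use. Of 17 such genes, they showed a median of 16 in each library and no fewer than 7. At least 9 were seen in 92 of 95 and in 30 of 33 members. Of the 17, 16 were at least 4-fold higher in members in both libraries, with Mertk as the exception, against 4.09% of all tested genes. Markers of T cells and NK cells gave 0 UMIs in members, which at 3 counts allows up to 2.35 CPM (counts of the gene per 1e+06 UMIs of the same cells) in replicate 1 and 4.63 in replicate 2. The mast cell list gave 1 UMI in all, and of the B cell list 5 genes gave 0 UMIs while Cd79b, a chain of the B cell receptor, gave 74 and 33.

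Some members also carried RNA of other cells. At least 10 UMIs of the markers of another cell type were found in 5 members of each library, a cutoff chosen after the values were seen. These are called mixed members here, and their lists included podocyte markers in 2 and 3 cases, stromal markers in 1 and 3, and neutrophil markers in 1 and 1. Summed podocyte markers stood at 1215 and 852 CPM over all members and at 117 and 176 CPM without the mixed ones, against 412 and 292 CPM in barcodes of over 100 and up to 500 UMIs, which hold free RNA. Proximal tubule markers were at 126 and 83.4 CPM in members and at 2487 and 2704 CPM in that free RNA. Red cell markers stood at 467 CPM with and 126 CPM without the mixed members in replicate 1, and at 105 and 111 CPM in replicate 2. Scrublet, which scores barcodes for the RNA of 2 cells, placed 2 and 4 members among its highest scores, 1 and 3 of them mixed. Values without the mixed members are given for some of the results.

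UMIs were summed per library over members and over all other barcodes, and log2 folds were taken with 5 CPM added to both sums. Of 10930 genes tested outside the rule, 447 (4.09%) were at least 4-fold higher in members in both libraries and 757 (6.93%) at least 4-fold lower. The median log2 fold over all tested genes was -0.16 and -0.12. Without the mixed members 480 genes were higher, 440 of them shared, and 1191 were lower, 735 of them shared. Since the rule chose members by their difference from the other barcodes, these counts and the folds below describe the cells and test nothing. The counts of higher and lower genes per list below are to be read beside these shares of 4.09% and 6.93%.

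Mrc1, the mannose receptor that takes up glycoproteins, had the largest fold. It stood at 2759 CPM in replicate 1 and 2687 in replicate 2, against 7.42 and 6.99 CPM in the other barcodes (log2 fold 7.80 and 7.81). Per cell it ran from 0 through medians of 23 and 29 to 323 and 296 UMIs. Nearly all members carried it, 90 of 95 and 29 of 33, but at levels that differed widely.
Pf4 reached 3449 and 3464 CPM, which was 7.60 and 7.86 on the log2 scale above the rest, and was seen in 92 and 31 members. The platelet markers Ppbp, Gp9, Itga2b, Gp1bb and Treml1 together gave 14 and 11 UMIs in members.
C1qc, the chain gene outside the rule, stood at 1705 and 1806 CPM (7.51 and 7.57) and was present in 95 of 95 and 32 of 33 members. F13a1 stood at 2073 and 1213 CPM (7.36 and 6.94).
The rest of the 25 leading genes were Fcer1g, Ctss, Cx3cr1, Aif1, Ms4a6c, Adgre1, Trf, Laptm5, Ms4a7, Fcgr3, Msr1, Ms4a6b, Cd163, Csf1r, Stab1, Fyb, Ifi27l2a, Bank1, Ccl12, Fcrls and Slc9a9. Adgre1 encodes F4/80, the classical surface marker of mouse macrophages, and was at 387 and 455 CPM against 1.51 and 1.99 elsewhere.
Among abundant genes of the kidney, the lowest in members were Erbb4, Esrrg, Mecom, Pkhd1, Fabp4, Ebf1, Gpc5, Slc12a1, Ldb2 and Wfdc2. Erbb4, a receptor kinase of tubule cells, was at 20.4 and 6.17 CPM in members and at 1328 and 1005 CPM elsewhere (-5.72 and -6.50).

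Other leukocytes were taken as the nearest set for comparison. They were the 61 and 50 barcodes with at least 2 UMIs of Ptprc, the pan-leukocyte gene, no Epcam and at most 1 C1q UMI. The limit of 1 C1q UMI also held for every other set of cells named here and below, such as endothelium, stroma and podocytes. This set also held endothelial RNA, with 852 and 480 UMIs of Emcn and 413 and 324 of Kdr. Members had 4 and 3 UMIs of Emcn and 3 and 1 of Kdr. Values given for other leukocytes here and below are thus not those of leukocytes alone. Of the 447 higher genes, 78 were at least 4-fold above these leukocytes as well in both libraries, 313 lay within 4-fold of them and 2 were at least 4-fold below. Outside members, leukocytes had the highest level of 344 of the 447 genes in both libraries, endothelium of 23, stroma of 13 and podocytes of 12.
Cd163, the receptor for haemoglobin bound to haptoglobin, gave 0 UMIs in the leukocytes of both libraries and stood at 281 and 290 CPM in members. Ccl12, a chemokine for monocytes, was at 309 and 238 CPM in members and had 0 CPM in leukocytes. Dab2, an adaptor of endocytosis, was at 1985 and 1805 CPM against 73.9 and 90.4 CPM.
Lyz2, the lysozyme of myeloid cells, went the other way, at 1005 and 983 CPM in members and 2166 and 2441 CPM in leukocytes. S100a8, a gene of neutrophils and monocytes, was at 130 and 193 CPM in members and at 7001 and 20630 CPM in leukocytes. It was seen in 1 and 3 members only, with 166 and 121 UMIs in the highest of each library.

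**Figure D2:**
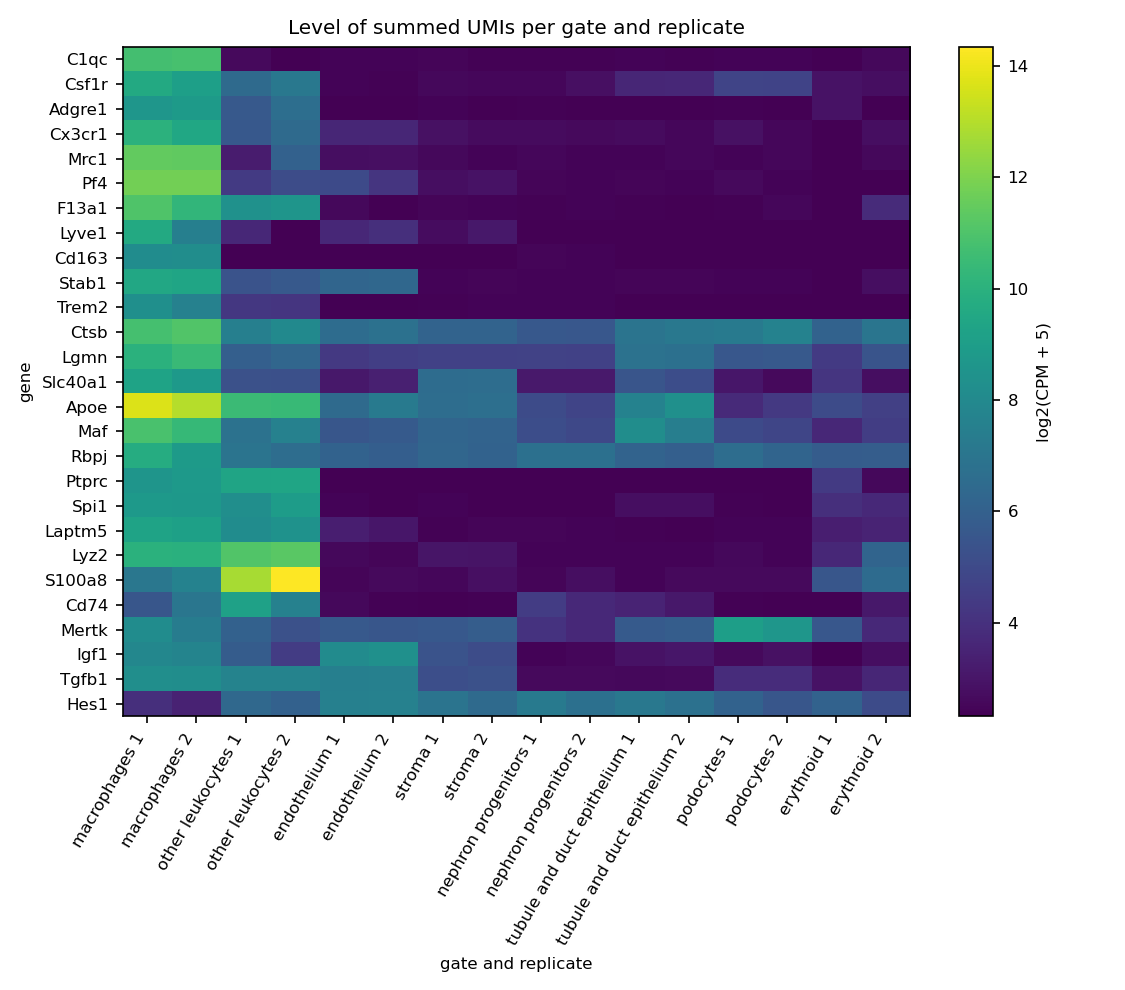
Colour gives log2 of CPM + 5 of summed UMIs for 27 genes (rows) in members and 7 other sets of cells, each library apart (columns). C1qc, Mrc1, Pf4 and Cd163 are bright in the 2 member columns and dark in all other sets, Lyz2 and S100a8 are brightest in other leukocytes, and Hes1 is darkest in members. Barcodes of the 7 other sets had at most 1 UMI of C1qa and C1qb in sum, so the choice of cells favoured low C1qc there.

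The complement genes reached beyond C1q to receptors and a regulator of the cascade. Of 11 tested outside the rule, 6 were higher and 0 lower, and the list's median log2 fold was 3.14 in replicate 1 and 3.11 in replicate 2.
C3ar1, the receptor for the fragment C3a, stood at 234 and 185 CPM in members and under 1 CPM elsewhere (5.38 and 5.13). C5ar1, the receptor for C5a, stood at 191 and 218 CPM (5.06 and 5.17). Cfp, which encodes properdin, the stabiliser of the alternative pathway, was at 129 and 204 CPM (4.01 and 4.68).
Itgam and Itgb2, the subunits of complement receptor 3, were also among the 6. The circulating components were scarce by contrast. C3 gave 3 and 13 UMIs and C4b 4 and 0, while the proteases that act with C1q, C1ra and C1s1, gave 9 and 2 and then 2 and 0 UMIs. Vsig4, a complement receptor of liver macrophages, had 2 and 0 UMIs.

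Receptors for dying cells were a mixed group, with 7 of 17 tested genes higher, 1 lower and medians of 2.13 and 2.10. Stab1, a scavenger receptor that binds phosphatidylserine, was at 733 and 658 CPM (5.72 and 5.50). Endothelium, which also carries stabilin, had 70.8 and 75.3 CPM. Msr1, scavenger receptor A, was at 338 and 378 CPM (5.65 and 5.72). Trem2, a lipid sensor that signals through Tyrobp, was at 310 and 188 CPM (5.73 and 5.01).
Dock2 and Elmo1, which drive the engulfing movement, and the receptors Cd36 and Lrp1 completed the 7. Elmo1 was higher still in endothelium, with 6812 of 11258177 UMIs in replicate 1 and 5693 of 10372415 in replicate 2. Members had 687 of 1276054 and 276 of 647834. Mertk, the TAM receptor kinase for bridged apoptotic cells, was at 281 and 159 CPM, with log2 folds of 2.13 and 1.5. A single member gave 36.0% of its UMIs in replicate 1, and podocytes had 531 and 388 CPM of it. Gas6, a bridging ligand of Mertk, was at 303 and 215 CPM (2.74 and 1.76).
Mfge8, a bridging protein between dying cells and integrins, was the lower gene, at 14.1 and 17.0 CPM against 82.1 and 95 CPM elsewhere. Timd4, a phosphatidylserine receptor of long-lived resident macrophages, gave 22 UMIs in 18 members of replicate 1 and 1 UMI in 1 member of replicate 2.

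Lysosomal genes were high in members, 14 of 24 tested being called higher and 1 lower (medians 2.36 and 2.31). Ctss, a cathepsin used in antigen processing, was at 806 and 872 CPM (6.35 and 6.36). Ctsc, the cathepsin that activates granule proteases, was at 857 and 1207 CPM (5.15 and 5.66). Ctsb was the most abundant cathepsin by UMIs, with 1788 and 2156 CPM (4.08 and 4.18), and Lgmn, the asparaginyl endopeptidase legumain, stood at 1018 and 1391 CPM (3.91 and 4.37).
Other lysosomal genes differed little. Cd63, a membrane protein of late endosomes, was at 423 and 426 CPM in members and at 393 and 448 CPM elsewhere, and Ctsl was at 299 and 386 against 274 and 269 CPM. Atp6v0d2, a proton pump subunit shared with acid-secreting cells of the collecting duct, was the lower gene with 4 and 0 UMIs.

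Iron and haem recycling gave 9 higher genes of 15 tested and 0 lower (medians 3.12 and 2.40). Macrophages take up haemoglobin through Cd163, split haem with Hmox1, reduce biliverdin with Blvrb and export iron through Slc40a1, which encodes ferroportin. Trf, which encodes the iron carrier transferrin, had the largest fold, with 623 and 573 CPM (5.99 and 5.88). Slc40a1 was at 619 and 446 CPM (3.97 and 3.55), against 34.2 and 33.6 CPM in other leukocytes. Blvrb was at 342 and 347 CPM (3.12 and 2.87).
Hmox1 was at 556 and 216 CPM (4.38 and 2.97), and 1 member held 38.6% of its UMIs in replicate 1 and 1 member 23.6% in replicate 2. The transferrin receptor Tfrc had the lowest fold of the list, -0.17 and -0.37. Spic, a factor of red pulp macrophages, gave 55 and 18 UMIs in 20 and 10 members.

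Apoe, a lipid carrier, had the most UMIs of the listed genes. It gave 13484 CPM in replicate 1 and 8082 in replicate 2, was present in every member and ran per cell from 15 and 4 through 177 and 141 to 483 and 496 UMIs (6.43 and 5.31). Other leukocytes had 1467 and 1352 CPM and tubule cells 194 and 320 CPM. Of 12 lipid genes, 5 were higher and 2 lower (medians 1.79 and 2.04). Abca1, which exports cholesterol, was at 295 and 440 CPM (3.88 and 4.39), and Plin2, the coat protein of lipid droplets, at 437 and 512 CPM (3.65 and 3.90).
Fabp4, a fatty acid carrier that also marks capillaries, was lower at 10.2 and 13.9 CPM against 460 and 593 CPM (-4.94 and -4.98). The libraries differed in direction for Fabp5, whose log2 fold was -0.09 in replicate 1 and 1.81 in replicate 2 (0.09 and 1.81 without the mixed members).

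**Figure D3:**
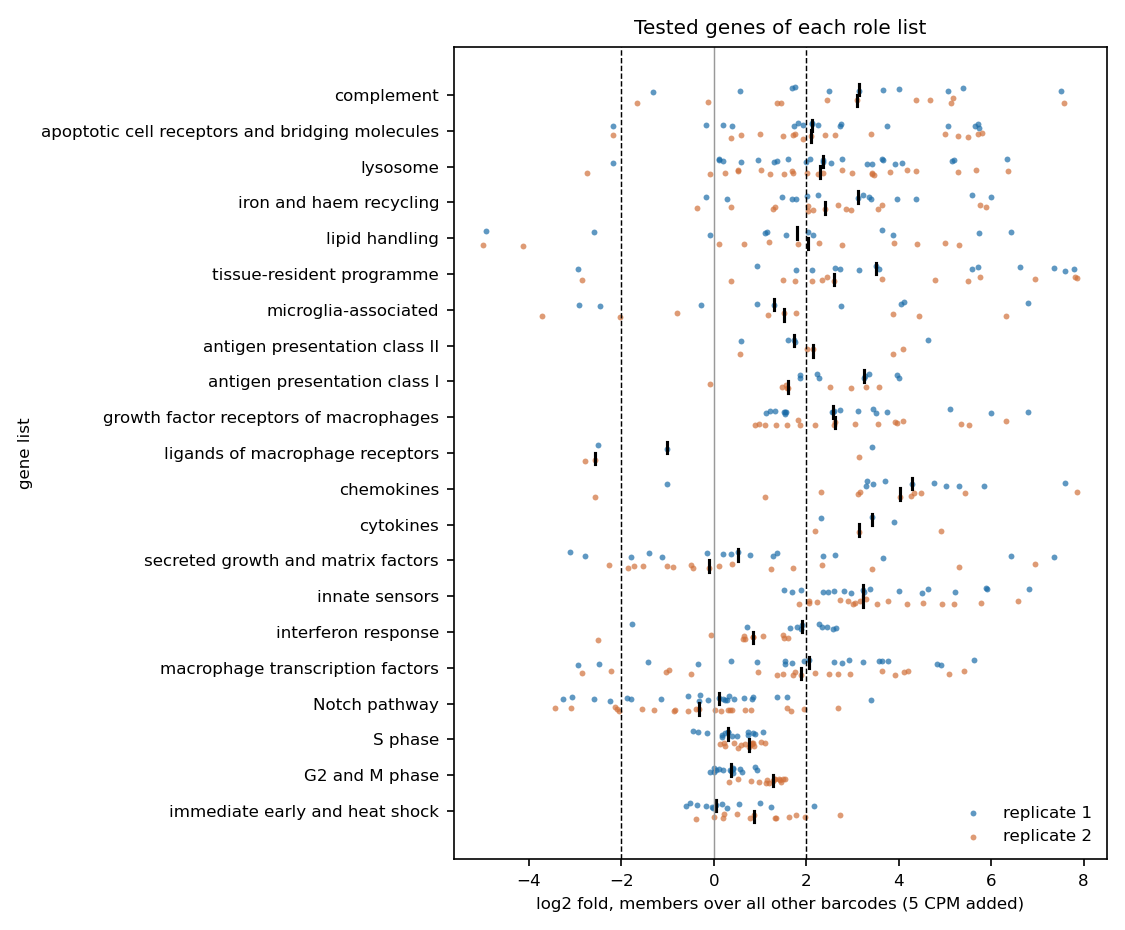
Points are the tested genes of each of 21 lists (vertical), placed by the log2 fold of members over all other barcodes with 5 CPM added (horizontal), blue for replicate 1 and orange for replicate 2, with black ticks at the medians and dashed lines at 4-fold. Chemokines have the highest medians, 4.28 and 4.04, and the cell cycle and Notch lists have medians from -0.31 to 1.28.

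The receptors that sustain and steer macrophages were higher for 11 of 18 tested genes, with 0 lower (medians 2.59 and 2.62). Csf1r, the receptor for the survival factors Csf1 and Il34, stood at 777 and 551 CPM (6.0 and 5.51), and was seen in 91 and 26 members. Podocytes, the next highest set after other leukocytes, had 22.3 and 21.9 CPM. Cx3cr1, the receptor of fractalkine, was at 1056 and 701 CPM (6.80 and 6.32).
Of 8 listed ligands of these receptors, 3 were tested, with 1 higher and 1 lower. Csf1 gave 2 and 1 UMIs in members, while endothelium had 20 and 17.4 CPM, other leukocytes 23.2 and 11.6 CPM and stroma 12.4 and 12 CPM. Il34 gave 1 and 0 UMIs in members, and tubule and duct epithelium had 11.7 and 10.3 CPM. Cx3cl1 gave 1 and 0 UMIs in members and 11.8 and 6.17 CPM in endothelium.
Tgfb1 was the ligand that members did carry, at 305 and 289 CPM (3.42 and 3.13), against 177 and 184 CPM in endothelium. Its relative Tgfb2 was lower, with 3 and 1 UMIs.

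Chemokine genes were the role list with the highest median, 4.28 and 4.04, with 9 of 11 tested genes higher and 0 lower. After Pf4, the largest folds were those of Ccl12 (5.85 and 5.43) and Ccl24, a chemokine for eosinophils, at 218 and 95.7 CPM (5.31 and 4.27). Ccl6 and Ccl9, of the CC family, had log2 folds of 5.03 and 4.48 and of 4.77 and 4.34. Ccl2, the ligand of Ccr2, gave 125 and 26 UMIs in 36 and 9 members.
Ccl4, Ccl7 and Cxcl16 were also among the 9, with 64 and 13 UMIs of Ccl4 (3.44 and 2.32) and 80 and 27 of Ccl7 (3.69 and 3.16). Ccl3 gave 59 and 4 UMIs (3.32 and 1.12) and was not called. Several other genes of both lists gave few UMIs. Cxcl1 gave 0 and 0 UMIs, Cxcl2 gave 1 and 0 and Cxcl10 gave 2 and 2. Il6 gave 0 UMIs, with an upper limit of 2.35 and 4.63 CPM, Il1b gave 0 and 2 UMIs and Tnf 10 and 5. All 3 tested cytokine genes were higher, namely Il18 (3.89 and 4.91), Tgfb1 and Il15 (2.33 and 2.18).
Of 17 secreted growth and matrix factors, 4 were higher (Igf1, Grn, Apoe and F13a1), 1 was lower (Pdgfa) and the medians were 0.51 and -0.11. Igf1, a growth factor, stood at 227 and 211 CPM in members and higher still in endothelium, at 274 and 324 CPM. Vegfa, the endothelial growth factor, gave 62 and 14 UMIs, of which 1 member held 98.4% and 78.6%, and podocytes had 594 and 533 CPM.

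Innate sensors were mostly higher, 15 of 18 tested genes being called higher and 0 lower (medians 3.23 and 3.22). Fcer1g, the signalling chain of Fc receptors, led with 1675 and 1809 CPM (6.82 and 6.57), followed by the IgG receptor gene Fcgr3 (5.88 and 5.77). Ly86, a partner of a Toll-like receptor, was at 411 and 182 CPM (5.91 and 4.94). Among the Toll-like receptor genes, Tlr1, Tlr2, Tlr4, Tlr7, Tlr8 and Tlr13 were called higher, whereas Tlr9 gave 0 UMIs and Tlr3 gave 11 and 2.
Of the 5 tested genes of MHC class II presentation, 1 was higher and 0 lower, with medians of 1.73 and 2.14. The shares over all tested genes were 4.09% and 6.93%. The genes of the class II chains themselves gave few UMIs. H2-Aa gave 2 and 1 UMIs, H2-Ab1 gave 3 and 0 and H2-Eb1 gave 1 and 1, or up to 8.60 CPM at the upper ends of the exact Poisson 95% intervals. Ciita, the master regulator of class II, gave 0 and 0. Cd74, the invariant chain, was at 41.5 and 128 CPM in members against 8.85 and 4.0 CPM in the other barcodes as a whole and 575 and 187 CPM in other leukocytes. Cd86, a costimulatory molecule, was the higher gene of the 5, at 137 and 92.6 CPM (4.63 and 4.09).
Class I genes were higher for 4 of 9, with medians of 3.25 and 1.61. B2m, the light chain of class I, was at 1020 and 639 CPM (3.96 and 3.28), and H2-D1 at 441 and 250 CPM (3.36 and 2.52).

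Transcription factors of the myeloid lineage were higher for 10 of 21 tested genes and lower for 1 (medians 2.06 and 1.89). Spi1, which encodes PU.1, was at 442 and 417 CPM (5.64 and 5.41) and was present in 89 of 95 and 33 of 33 members. Runx1 was at 431 and 255 CPM (4.91 and 4.20) and Ikzf1, the lymphoid and myeloid factor Ikaros, at 235 and 259 CPM (4.82 and 5.09). Maf, a factor of resident macrophages, was the most abundant by UMIs, at 1882 and 1309 CPM (3.58 and 3.63), and every member carried it.
Id3 was the lower gene, at 40.8 and 38.6 CPM against 343 and 308 CPM, and at 12.2 and 9.45 CPM without the mixed members. Sall1, the defining factor of microglia and also a factor of nephron progenitors, gave 13 and 0 UMIs, or 10.2 and 0 CPM with the mixed members and 1.88 and 0 CPM without them. Of 9 tested microglia-associated genes, 3 were higher, P2ry12 (4.12 and 4.44), Gpr34 and Cx3cr1, and 2 were lower, Sall1 and Sparc, while Tmem119 had folds of 0.94 and 1.18.

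Rbpj, the gene that is conditional in these animals and encodes the DNA-binding partner of Notch, was higher in members than in any other set of cells. Members had 854 CPM in replicate 1 and 455 in replicate 2, and the other sets ran from 51.3 to 119 CPM in replicate 1 and from 53.1 to 102 CPM in replicate 2 (log2 folds over all other barcodes 3.40 and 2.68). It was seen in 87 of 95 and 26 of 33 members, with medians of 5 and 5 UMIs per cell and highest values of 117 and 52. The 3' counts do not say whether the transcripts came from the conditional or the other allele.
Of 23 tested genes of the Notch list, Rbpj alone was higher and 3 were lower, with medians of 0.12 and -0.31. Over all tested genes, 4.09% were higher and 6.93% lower, so these counts do not set the list apart. Hes1, the best known target gene of Notch, was at 10.2 and 6.17 CPM in members and at 140 and 117 CPM elsewhere (-3.26 and -3.44), and other leukocytes had 79.4 and 62.0 CPM. Jag1, a ligand, gave 4 and 1 UMIs (-3.07 and -3.09), and Notch3, a receptor of mural cells, gave 1 and 2 (-2.59 and -2.05).
Notch1 was at 39.2 and 29.3 CPM (-0.55 and -0.87) and Notch2 at 82.3 and 74.1 CPM (0.24 and 0.36). Foxd1, whose promoter drives the Cre, gave 15 and 8 UMIs in members, all of them in mixed members, or 11.8 and 12.3 CPM, against 52.4 and 81.6 CPM in stroma and 217 and 206 CPM in podocytes.

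Many members carried RNA of dividing cells. After thinning every cell to 3000 UMIs, so that depth was equal, at least 3 UMIs of 15 G2 and M phase genes were found in 25 of 95 members (26.3%, exact binomial 95% interval 17.8 to 36.4%) and in 13 of 33 (39.4%, 22.9 to 57.9%). At full depth the shares were 43.2% and 54.5%. Without the mixed members the thinned shares were 24.4% and 35.7%. Other leukocytes had 19.7% and 6%, endothelium 28.0% and 21.0%, nephron progenitors 28.5% and 20.6%, and podocytes, which leave the cell cycle as they mature, 0.984% and 0.719%.
With a list of 15 S phase genes, 47.4% (37.0 to 57.9%) and 57.6% (39.2 to 74.5%) of members reached 3 UMIs. Without the mixed members the shares were 43.3% and 60.7%. Nephron progenitors, the next highest set, had 42.4% and 45.5%, which lie within the members' intervals. Other leukocytes had 11.5% and 10.0%. As sums over cells, no gene of either list passed 4-fold in both libraries, and the median log2 fold was 0.31 and 0.77 for S phase and 0.36 and 1.28 for G2 and M phase.

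**Figure D4:**
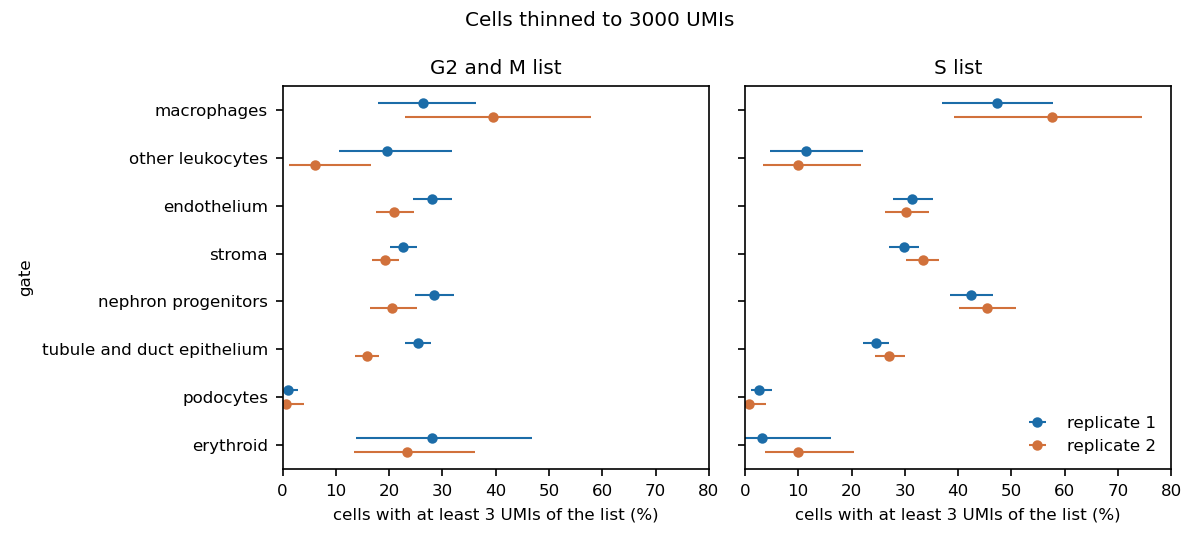
Points give the percent of cells with at least 3 UMIs of the G2 and M list (left) and of the S list (right) after thinning to 3000 UMIs, by set of cells and library, and bars are exact binomial 95% intervals. Members reach 26.3% and 39.4% on the left and 47.4% and 57.6% on the right, and podocytes stay below 3% in both.

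The members inside G2 and M differed from the others in more than the listed genes. Among 3774 genes with at least 100 UMIs in members, 69 were at least 2-fold higher in the 25 and 13 members inside and 12 at least 2-fold lower, in both libraries and with or without mixed members. The higher genes were those of division, such as Mki67 (3.83 and 3.88), Top2a (3.56 and 4.01) and the histone gene Hist1h1b (3.42 and 2.87), as the choice of the cells fixes. Members inside were also deeper, with medians of 15557 and 24124 UMIs against 10703 and 12432.
Among the 12 lower genes were Cd163, at 122 and 80.4 CPM inside and 347 and 554 CPM outside (-1.48 and -2.71), and Hmox1, at 238 and 122 CPM inside and 690 and 335 CPM outside (-1.52 and -1.42). Fn1, Mitf, Mertk and Lpl were lower inside as well.

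Genes tied to tissue-resident macrophages were higher for 10 of 15 tested and lower for 1, Id3 (medians 3.51 and 2.59). Within that list, members differed among themselves in Lyve1, the hyaluronan receptor that marks perivascular macrophages and lymphatic vessels. It gave 769 and 178 CPM in sum, but all of it came from 33 of 95 members in replicate 1 and 11 of 33 in replicate 2, with up to 164 and 34 UMIs in a cell and a median of 0. After thinning to 3000 UMIs, 31.6% and 30.3% of members had a Lyve1 UMI, against 0.0805% and 0% of tubule and duct cells. Members with and without Lyve1 had similar depth, with medians of 12296 and 11097 UMIs in replicate 1 and 16683 and 17448 in replicate 2. Mixed members were 3 and 2 of those with Lyve1 and 2 and 3 of those without.
Of the 3774 genes, 30, Lyve1 itself among them, were at least 2-fold higher and 27 at least 2-fold lower in members with Lyve1 in both libraries, with or without the mixed members. This split was chosen after the values were seen, and no test of it is given.

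Folr2, a folate receptor of resident macrophages, was at 211 and 67.9 CPM in members with Lyve1 and at 33.0 and 9.06 CPM in those without (2.51 and 2.37). A Folr2 UMI was found in 18 of 33 and 5 of 11 members with Lyve1, and in 7 of 62 and 3 of 22 without. Ednrb, a receptor of endothelin, was at 675 and 388 CPM with Lyve1 and 113 and 72.5 CPM without (2.52 and 2.34), and 28 of 33 and 10 of 11 members with Lyve1 carried it.
Cd163 followed the same division, at 477 and 766 CPM with Lyve1 and 117 and 67.9 CPM without (1.98 and 3.40). Colec12, a scavenger receptor with a lectin domain, was at 808 and 368 CPM against 94.6 and 95.1 CPM (3.03 and 1.90). Hmox1 was at 917 and 417 CPM against 258 and 122 CPM (1.81 and 1.73).
Mrc1 and F13a1, present in nearly all members, were still higher with Lyve1, by 1.12 and 2.0 and by 1.36 and 1.94. The bridging ligand Gas6 was higher by 1.15 and 2.39 and Ccl24 by 1.23 and 2.05.
Rbpj was also among the 30 genes. It stood at 1361 and 955 CPM in members with Lyve1 and at 434 and 222 CPM in those without (1.64 and 2.08), and without the mixed members the log2 differences were 1.98 and 2.08. Both sides of the split were above the 119 CPM found in other leukocytes of replicate 1, the highest of the other sets.

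Members without Lyve1 carried more RNA of 27 genes. Ccnd2, a cyclin of the G1 phase, was at 106 and 58.9 CPM without Lyve1 and at 8.65 and 4.85 CPM with it (-3.02 and -2.70). Cd52, a surface peptide of leukocytes, was at 160 and 423 CPM against 13.8 and 97.0 CPM (-3.13 and -2.07). Bcl2a1b, a survival gene with close copies in the genome, was at 90.3 and 192 CPM against 15.6 and 4.85 CPM (-2.21 and -4.33).
Fabp5 (-2.75 and -1.92), the pore-forming protein gene Mpeg1 (-2.45 and -1.48), the inhibitory receptor gene Lair1 (-1.80 and -3.44), Vcam1 (-2.35 and -1.36) and Cd74 (-1.44 and -2.0) lay on the same side. Axl, a receptor of the same family as Mertk, was lower with Lyve1 as well (-1.20 and -1.66). The share inside G2 and M was 7 of 33 and 4 of 11 with Lyve1 and 18 of 62 and 9 of 22 without, which is lower with Lyve1 in each library but by few cells.

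**Figure D5:**
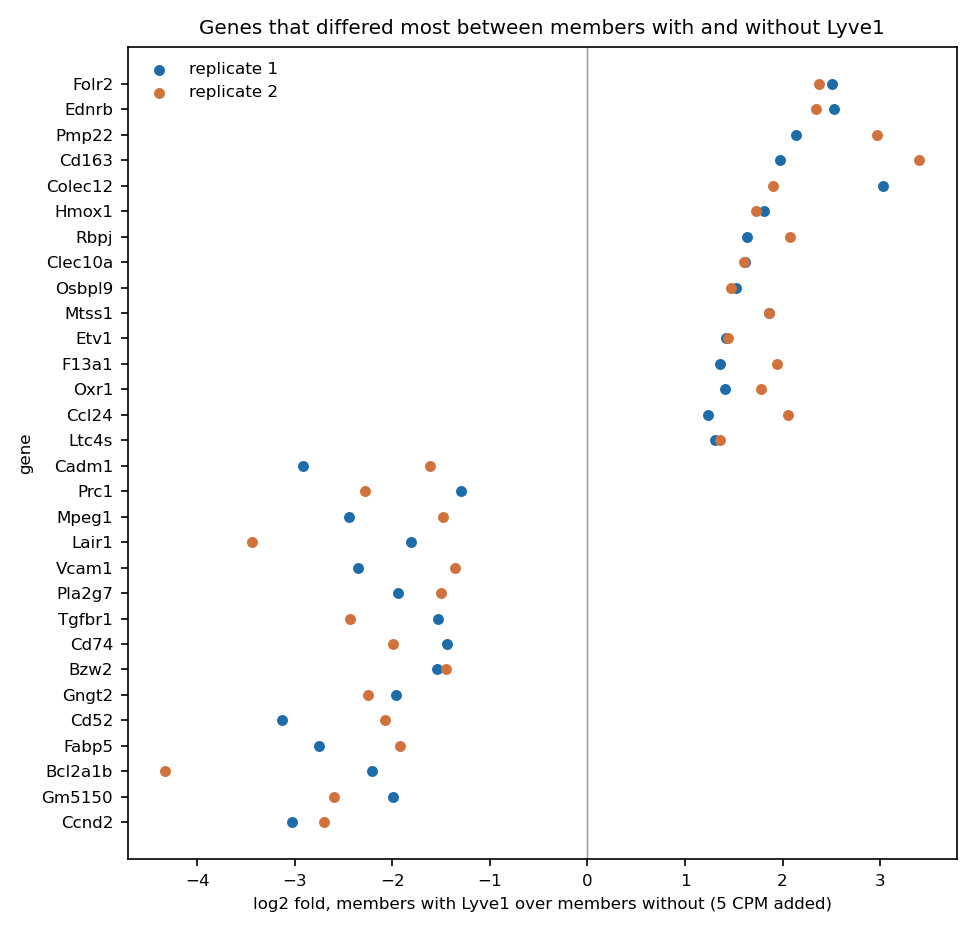
Points give the log2 fold of members with at least 1 Lyve1 UMI over members without (horizontal, 5 CPM added) for the 15 genes highest and the 15 lowest, Lyve1 left out, by the smallest value over both libraries with and without mixed members, blue for replicate 1 and orange for replicate 2. Folr2, Ednrb, Cd163 and Rbpj lie at 1.64 or above in both libraries, and Ccnd2 and Cd52 lie at -2.07 or below.

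Ccr2, the receptor by which monocytes leave the marrow, was carried by few members. It was present in 7 and 5 members, with up to 13 and 28 UMIs, none of which carried Lyve1. In replicate 2, 1 member held 73.7% of the Ccr2 UMIs. Other leukocytes had 266 and 309 CPM of Ccr2, members 37.6 and 58.7 CPM.
Of the 3774 genes, 12 were at least 2-fold higher and 49 at least 2-fold lower in members with Ccr2 in both libraries, with or without the 1 and 2 mixed members among them. Cd74 was at 185 and 375 CPM with Ccr2 and 30.4 and 57.6 CPM without (2.43 and 2.60), and S100a6, a calcium-binding protein, at 446 and 291 CPM against 41.4 and 25.8 CPM (3.28 and 3.27, but 1.67 and 1.07 without the mixed members). Cd52 and Ly6e, surface proteins of leukocytes, were higher too, as was Itgam (1.69 and 1.10).
Mrc1 was at 1024 and 853 CPM with Ccr2 and at 2893 and 3213 CPM without (-1.49 and -1.91), and Folr2, Gas6 and Fcna were lower. The side without Ccr2 held all 33 and 11 members with Lyve1, in which Mrc1, Folr2 and Gas6 were higher. Over all members without Lyve1, Mrc1 was at 1801 and 1375 CPM. The splits by Ccr2 and Lyve1 thus overlap, and Ccr2 was not compared among members without Lyve1 alone. Ly6c2, a marker of classical monocytes, gave 6 and 4 UMIs, all of them in members with Ccr2 (3.81 and 2.71). Without the mixed members these log2 differences were 2.75 and 0, since all 4 UMIs of replicate 2 lay in mixed members.

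Some genes differed between the libraries in members, and they are described without a test since each library is 1 sample. Marco, a scavenger receptor for bacteria and particles, gave 2 UMIs in 2 of 95 members of replicate 1 (2.11%, exact binomial 95% interval 0.256 to 7.40%). In replicate 2 it gave 206 UMIs in 15 of 33 members (45.5%, 28.1 to 63.6%), with up to 70 in a cell. None of the carriers was mixed. Other leukocytes had 0 and 14.2 CPM of it, and no other set exceeded 0.391 CPM.
Interferon response genes differed the other way. All 11 tested genes of the list were higher in members of replicate 1 than of replicate 2, with a median log2 difference of 1.08 (1.11 without mixed members). The same genes differed by a median of 0.07 in the other barcodes, and over all 10930 tested genes the median in members was -0.03, 5087 of them being higher in replicate 1.
Per member the summed level of the list ran from 95.3 through 1242 to 4708 CPM in replicate 1, and from 0 through 545 to 1933 CPM in replicate 2. At least 1000 CPM were reached by 57 of 95 members (60%) in replicate 1 and 5 of 33 (15.2%) in replicate 2. The ranges overlapped.

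Bst2, the antiviral protein tetherin, stood at 362 CPM in members of replicate 1 and 130 in those of replicate 2, and at 56.7 and 39.5 CPM in the other barcodes. H2-K1, a class I gene outside that list, stood at 239 and 72.5 CPM, against 20.7 and 23.0 CPM. Set against the other barcodes of its own library, no gene of the interferon list passed 4-fold in both libraries, and the medians were 1.91 and 0.84.
Hpgd, which degrades prostaglandins, was at 233 and 55.6 CPM in members, and at 17.6 and 20 CPM elsewhere. Cd52 and Fabp5 were higher in replicate 2, at 94.0 and 320 CPM and at 194 and 628 CPM. Animal, litter, dissociation and library cannot be told apart in these differences. Immediate early and heat shock genes, which dissociation can raise, had 1 of 13 higher, Fos (2.16 and 2.74), and medians of 0.04 and 0.87. Over all tested genes 4.09% were higher.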

How the data were processed

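The deposited counts are whole UMIs for 32285 genes in every barcode, and the file headers name Cell Ranger 4. The submitters' processing notes name Cell Ranger 6.0.1 and mm10. How reads shared by near-identical genes (Ms4a6b and Ms4a6c, Fcgr3 and Fcgr4, H2-K1 and H2-D1, Bcl2a1b) were counted is not given in the sources used here, so their values are uncertain. UMIs were summed per library over members and over all other barcodes passing the limits, scaled to CPM, and log2 folds were taken with 5 CPM added. Genes with at least 20 member UMIs, or that CPM in the other barcodes, were tested, leaving out the 6 rule genes. A call needed 4-fold in both libraries. No p-value was computed, since the rule used this contrast. Intervals are exact at 95%. Scrublet (scanpy 1.11.5) served as an alternative, as did TMM (edgeR 4.0.16) and DESeq2 1.42.0 scaling, which were run on summed counts. Python 3.11.15, numpy 2.4.6, scipy 1.17.1, pandas 2.3.3 and matplotlib 3.10.9 were used. The fold calls were tried on simulated sums with known changes. These had no spread between cells, no mixed members and no choice of cells by a rule, so they bear on the calculation only. Coordinates of genes are from GENCODE on GRCm38.

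Members and the 40 gene lists (19 of markers, 21 of roles) were chosen with earlier results of these data known. Named genes are the 25 with the largest fold in the library where it is smaller (at least 20 UMIs per library), the 10 lowest among genes with at least 100 CPM elsewhere, the rule genes, and from each role list the highest, the lowest and those whose libraries differ. Genes named from the splits by Lyve1, Ccr2 and cell cycle, the library differences, the motifs, and further list members were chosen after their values were seen.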

Additional observations from a re-analysis of the deposited data

Results flagged for a closer look

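Signal appeared in barcodes of 10 to 100 UMIs, which no comparison of cells used. Sftpc, a surfactant gene of the lung, stood there at 11185 CPM in replicate 1 and at 9.03 CPM in replicate 2, and gave 0 UMIs in members. Cd74 was at 1588 and 7.23 CPM and H2-Aa at 686 and 123 CPM in these barcodes. Ddx3y, a gene of the Y chromosome, was at 47.1 and 36.1 CPM there and gave 0 UMIs in members. C1qa stood at 336 and 14.5 CPM in the same barcodes. Barcodes of over 100 and up to 500 UMIs were used for free RNA instead, a choice made after these values were seen. In them Sftpc was at 42.3 and 0.0452 CPM and Cd74 at 7.91 and 3.43 CPM. Scgb1a1, a gene of the lung airway, was at 345 and 0.0452 CPM in them, against 3914 and 0 CPM at 10 to 100 UMIs. The free RNA profile of replicate 1 thus still held such transcripts. Scgb1a1 gave 0 UMIs in members. The origin of these transcripts was not tested.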

How the results depend on the processing

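The 128 members became 109 to 187 under the other limits on UMIs, mitochondrial share, C1q, the 3 excluded genes, Scrublet and mixed members. One library alone held 33 to 95. Genes higher in members (447) numbered 400 to 621 in most settings, but 236 with 20 CPM added and 1065 at a fold of 2. Genes lower (757) numbered 235 without limits on Epcam, Pecam1 and Col3a1, 1267 with 1 CPM and 205 with 20 CPM added, 1896 at a fold of 2 and 1191 without mixed members. From one library alone, 462 to 561 were higher and 754 to 970 lower. The share in G2 and M, 32.9% as the mean of both libraries, was 26.3 to 39.4% with one library left out, 55.1% at 1 UMI or more, 48.9% without thinning and 19.1% when thinned to 1000 UMIs. It was not computed for the limit of 1000 UMIs per barcode. Of 113 called role genes, 69 were called in all 17 settings and 0 reversed direction in any. None of the 703 values of the 37 named genes reversed, but most of these genes were chosen for large folds, which makes a reversal unlikely. Of the 703 values, 481 stayed within the standard deviation between the libraries. No paired analysis was possible because the replicate numbers only follow the order of deposit and there is 1 group. Depth limits rare genes: 3 counts are 2.35 CPM in members of replicate 1 and 4.63 CPM in those of replicate 2.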
